A study of Homo sapiens with 6 samples.

Results

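The genes described here encode vascular growth factors of the VEGF family (VEGFA, VEGFB, VEGFC and PGF), their neuropilin co-receptors (NRP1 and NRP2), the adrenomedullin peptides (ADM and ADM2) and a pair of angiopoietin-like proteins (ANGPTL2 and ANGPTL4). They are 10 of the 60649 genes in the count table, matched by symbol, and all 10 passed the filter on low counts that left 16039 genes. They were chosen by symbol with their levels under both hairpins and in the controls already known, so their differences from the controls are given as a description with no test. RNA sequencing was done in 786-O, an established human line of clear cell renal carcinoma that has no working VHL protein and keeps HIF-2alpha active. The 3 groups of 2 libraries were cells with shRNA1 or shRNA2, each a hairpin that targets the long non-coding RNA LINC02068, and controls whose libraries are named shControl. The labels name the control genotype WT, give no further treatment in any group, and do not say whether the replicates were separate cultures, so the spread between them may be technical. All groups come from 1 cell line, and protein was not measured.

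VEGF ligands are secreted dimers. VEGFA and VEGFC act on endothelial receptor kinases of blood and lymph vessels (KDR, FLT4), while VEGFB and PGF bind FLT1, and neuropilins hold the ligands at the cell surface without a kinase of their own. VEGFA, ADM and ANGPTL4 are known targets of hypoxia-inducible factors, and in clear cell renal carcinoma the loss of VHL keeps VEGFA high and the tumours rich in vessels. ADM relaxes vessels and strengthens their barrier through the receptor CALCRL with a RAMP partner, ADM2 (intermedin) is its relative, ANGPTL4 blocks lipoprotein lipase, and ANGPTL2 is a secreted glycoprotein tied to inflammation and vessel growth.

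The promoters of the adrenomedullin pair and the ANGPTL pair are shown because the members of each pair differed so widely in their change. They come from RefSeq (GRCh38.p14) and run from 250 bases before to 50 bases from the start site. Capitals mark ACGTG or GCGTG on either strand (as CACGT or CACGC on the other), the core that hypoxia-inducible factors bind; a CACGTG would match ACGTG on both strands.

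ADM2, chr22:50481293-50481592, plus strand: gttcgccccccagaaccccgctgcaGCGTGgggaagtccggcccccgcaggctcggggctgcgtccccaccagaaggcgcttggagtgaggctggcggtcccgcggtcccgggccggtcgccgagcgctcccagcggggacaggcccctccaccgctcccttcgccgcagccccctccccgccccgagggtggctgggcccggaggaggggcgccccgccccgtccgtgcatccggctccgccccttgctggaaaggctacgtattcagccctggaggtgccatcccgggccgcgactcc

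ADM, chr11:10304823-10305122, plus strand: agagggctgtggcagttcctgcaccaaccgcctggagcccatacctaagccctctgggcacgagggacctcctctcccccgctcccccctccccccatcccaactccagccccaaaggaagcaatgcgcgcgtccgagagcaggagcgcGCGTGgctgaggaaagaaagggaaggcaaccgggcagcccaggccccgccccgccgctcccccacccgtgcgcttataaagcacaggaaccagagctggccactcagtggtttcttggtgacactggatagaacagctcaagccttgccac

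ANGPTL2, chr9:127122586-127122885, minus strand: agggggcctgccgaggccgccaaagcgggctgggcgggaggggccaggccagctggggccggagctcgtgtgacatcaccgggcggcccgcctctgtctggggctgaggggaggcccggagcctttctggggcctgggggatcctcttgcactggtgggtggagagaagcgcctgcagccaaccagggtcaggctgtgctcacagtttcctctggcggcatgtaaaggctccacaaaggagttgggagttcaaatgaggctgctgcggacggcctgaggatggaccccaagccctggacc

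ANGPTL4, chr19:8363905-8364204, plus strand: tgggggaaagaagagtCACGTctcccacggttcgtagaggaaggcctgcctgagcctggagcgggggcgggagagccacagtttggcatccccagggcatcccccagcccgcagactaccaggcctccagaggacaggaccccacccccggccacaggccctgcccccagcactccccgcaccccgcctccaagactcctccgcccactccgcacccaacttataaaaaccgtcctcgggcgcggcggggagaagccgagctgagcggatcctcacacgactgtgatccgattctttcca

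The match in ADM2 lies at −225 and that in ADM at −101, where 1 is the start base and negative positions lie before it. ANGPTL4 has its match at −234, and no match lies in these letters of ANGPTL2. RefSeq promoters matched 8 members, and VEGFA and NRP1 had no entry. Of those 8, 6 hold ACGTG or GCGTG, as do 48.4% of all 35116 promoters of this length, and the members without it are ANGPTL2 and NRP2. The C/EBP-ATF element TGATGNAA, searched on both strands, was in 0 of 8 and in 3.6% of all promoters. G and C made up 65.0% (ADM) to 84.7% (VEGFB) of the members' promoters, against a median of 58.7% over all. A match is a description of the letters only.

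Total counts per library ran from 15376448 to 37311846, so that 1 CPM (counts scaled to each library's TMM-adjusted total) stood for 14.9 to 36.0 counts. LINC02068 was scarce, with 20 and 32 counts in the controls, 9 and 2 with shRNA1, and 17 and 10 with shRNA2, and its log2 change in the mean of both hairpins was −1.46 ± 0.59 (SE, edgeR quasi-likelihood test, Benjamini-Hochberg adjusted p = 0.0447). Neither hairpin alone passed (adjusted p = 0.0690 and 0.148). Of 10 renal markers 9 were expressed enough to test, among them PAX8 at 306.5 CPM in the controls, and LRP2 had no counts. Of 10 endothelial markers CDH5 had no counts and VWF at most 4 in any library, and the list summed to 21.5 to 23.6 CPM in the controls and 11.6 to 12.9 with the hairpins, most of it EGFL7 and TIE1. Fibroblast markers summed to 17.3 to 18.0 and 12.7 to 15.5 CPM, and leukocyte markers to 36.5 to 40.4 and 37.8 to 44.2 CPM, nearly all CD68. The part of these lists in the results below was not tested. In bulk RNA, fewer cells that express a gene and less of its RNA per cell cannot be told apart.

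In the control libraries the members covered a wide range of levels. Per kilobase of the longest coding transcript in GENCODE 29, VEGFA was highest at 379 CPM per kb, above 99.2% of the 12827 tested genes with a length. ADM followed at 158 CPM per kb and NRP1 at 84.6. NRP2 stood at 54.0 CPM per kb and VEGFB at 47.8. ADM2 stood at 15.3 CPM per kb and VEGFC at 13.2, where the control libraries ran from 15.3 to 15.4 for ADM2 and up to 14.4 for VEGFC. PGF had 8.64 CPM per kb, ANGPTL4 5.62, and ANGPTL2 was lowest at 1.81, above 21.3% of genes. Control libraries of neighbours in this order did not overlap, but the order itself depends on the length used. With all annotated exons merged, where VEGFA counts 14431 bases in place of 3535, ADM (109.8 CPM per kb) stood above VEGFA (92.8), VEGFB above NRP2, and ANGPTL4 above PGF.

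VEGFA, on chromosome 6 from 43770184 to 43786487 (plus strand, GRCh38), is the main growth factor for endothelial cells. It measured 1328 and 1350 CPM in the controls, 248 and 261 CPM with shRNA1, and 246 and 249 CPM with shRNA2. The knockdown libraries lay in a narrow band far below both controls. The group means were 19.0% of the control mean with shRNA1 and 18.5% with shRNA2, or log2 changes of −2.40 ± 0.04 and −2.44 ± 0.04 (SE of the edgeR fit, as for all changes below). The rest of the family did not share this size of change.

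VEGFB, a ligand of FLT1 with a weak effect on vessel growth, on chromosome 11 from 64234538 to 64238793 (plus strand), was the single member above the controls. It measured 65.7 and 66.3 CPM in the controls, 82.8 and 87.5 CPM with shRNA1, and 76.7 and 79.7 CPM with shRNA2. Every knockdown library was higher than both controls, by 0.37 ± 0.06 with shRNA1 and 0.24 ± 0.06 with shRNA2 on the log2 scale. The change in the mean of both hairpins was 0.31 ± 0.05, and 0.15 when libraries were scaled by total counts, a scaling that moves the median of all tested genes from −0.03 to −0.18.

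VEGFC, the growth factor of lymph vessels, on chromosome 4 from 176683538 to 176792727 (minus strand), measured 24.7 and 29.8 CPM in the controls, 22.2 and 20.8 CPM with shRNA1, and 20.4 and 19.9 CPM with shRNA2. The groups did not overlap, but the gap between the lower control and the higher knockdown library was smaller than that between the controls. Its mean change of −0.39 ± 0.10 was −0.25 without shControl replicate 2 and −0.53 without shControl replicate 1. PGF, the placental growth factor, on chromosome 14 from 74941834 to 74955784 (minus strand), measured 15.7 and 17.6 CPM in the controls, 7.26 and 7.32 CPM with shRNA1, and 7.75 and 7.66 CPM with shRNA2. These were 43.8% and 46.3% of the control mean (−1.19 ± 0.15 and −1.11 ± 0.14).

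**Figure D1:**
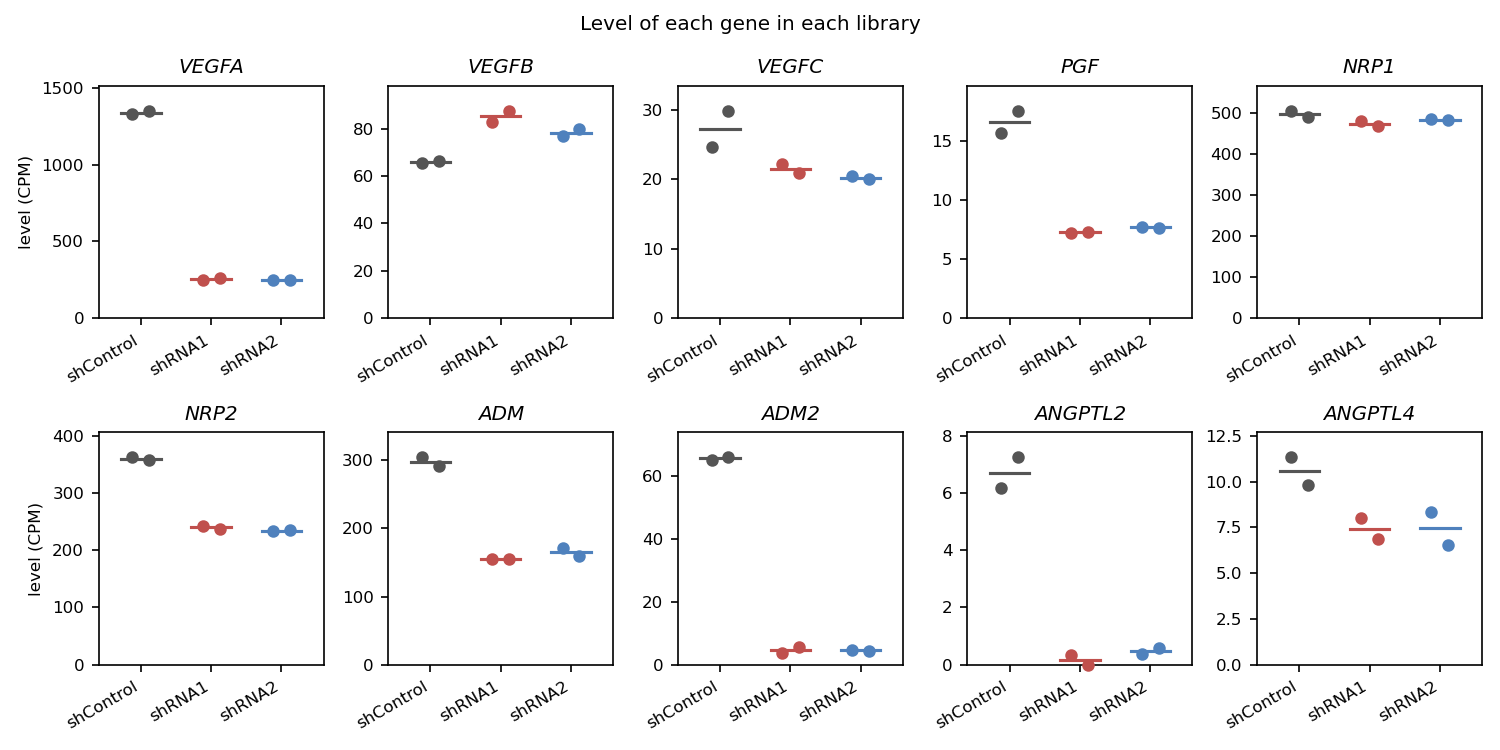
Level in CPM (vertical axes from 0, 1 panel per gene) of each of the 10 genes in every library, with points for libraries and bars for group means of 2. VEGFA, PGF, ADM, ADM2 and ANGPTL2 lie far below both controls under either hairpin, VEGFB lies above them, and NRP1 stays at 95.4% (shRNA1) and 97.3% (shRNA2) of the control mean.

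Because the family members moved by different amounts, their ratio within a library changed, a quantity that no scaling of libraries can alter. VEGFA had 20.2 and 20.4 counts for each count of VEGFB in the controls. With shRNA1 this ratio was 2.99 and 2.98, and with shRNA2 3.21 and 3.12. Against VEGFC, VEGFA had 53.8 and 45.3 counts per count in the controls and 11.1 to 12.5 in the knockdown libraries. VEGFA thus remained the VEGF ligand with the most counts in every library, by a narrower margin under the hairpins. Counts take no account of transcript length. Per kilobase of the longest coding transcript, VEGFA and VEGFB stood at 71.9 and 61.7 CPM with shRNA1 and at 70.0 and 56.7 CPM with shRNA2. The order of these levels also depends on the length used, as VEGFA has 14431 bases with all exons merged and VEGFB 1545.

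The neuropilins differed from each other. NRP1, the co-receptor that binds VEGFA and class 3 semaphorins, on chromosome 10 from 33177492 to 33336262 (minus strand), measured 506 and 490 CPM in the controls, 480 and 469 CPM with shRNA1, and 486 and 483 CPM with shRNA2. The knockdown libraries were below both controls, but the gap between the nearest pair was smaller than the difference between the controls. The mean change was −0.05 ± 0.03, or −0.21 under total counts. NRP2, which also binds VEGFC, on chromosome 2 from 205681990 to 205798133 (plus strand), measured 362 and 357 CPM in the controls, 242 and 237 CPM with shRNA1, and 233 and 235 CPM with shRNA2. Its knockdown libraries lay well below, at 66.7% and 65.0% of the control mean (−0.58 ± 0.04 and −0.62 ± 0.04). NRP1 had 1.40 and 1.37 counts per count of NRP2 in the controls, and 1.98 to 2.08 in the 4 knockdown libraries. VEGFA exceeded NRP1 by 2.63 and 2.76 counts to 1 in the controls, and had 0.506 to 0.556 counts per count of NRP1 with the hairpins.

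The adrenomedullin genes were both lower, to very different degrees. ADM, on chromosome 11 from 10304680 to 10307397 (plus strand), measured 304.5 and 292 CPM in the controls, 155 and 156 CPM with shRNA1, and 171 and 160 CPM with shRNA2. It stood at 52.1% and 55.4% of the control mean (−0.94 ± 0.04 and −0.85 ± 0.04). ADM2, on chromosome 22 from 50481556 to 50486440 (plus strand), measured 65.2 and 65.9 CPM in the controls, 3.56 and 5.44 CPM with shRNA1, and 4.78 and 4.45 CPM with shRNA2. These were 6.86% and 7.04% of the control mean (−3.84 ± 0.15 and −3.82 ± 0.14). The shRNA1 replicates rest on 53 and 104 counts, with 95% Poisson intervals of 2.67 to 4.66 and 4.44 to 6.59 CPM that cover counting error only. Each count of ADM2 came with 4.67 and 4.43 counts of ADM in the controls and with 28.7 to 43.5 in the knockdown libraries.

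**Figure D2:**
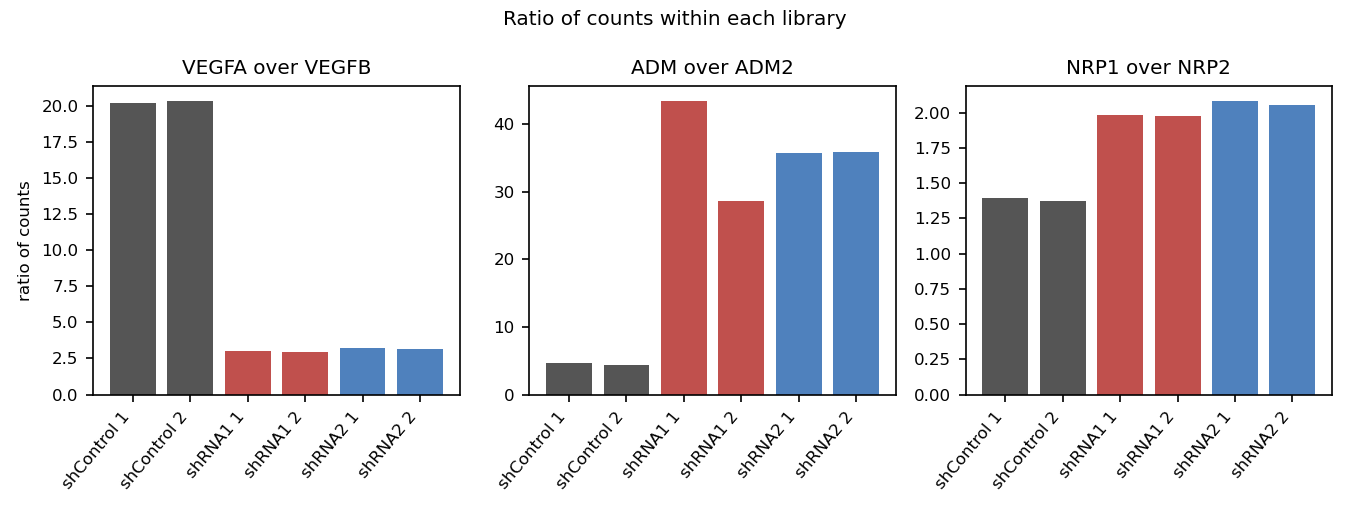
Ratio of counts (vertical axis, from 0) of VEGFA over VEGFB, ADM over ADM2 and NRP1 over NRP2 in each of the 6 libraries, 1 bar per library, coloured by group. The VEGFA over VEGFB ratio goes from 20.2 and 20.4 in the controls to between 2.98 and 3.21 with the hairpins, and the ADM over ADM2 ratio from at most 4.67 to at least 28.7.

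ANGPTL2, on chromosome 9 from 127087332 to 127122883 (minus strand), was the least abundant member. It had 115 and 203 counts in the controls, 5 and 0 with shRNA1, and 13 and 12 with shRNA2. In CPM this was 6.17 and 7.24 in the controls, 0.336 and 0 with shRNA1, and 0.361 and 0.574 with shRNA2. The library with no counts allows a level of up to 0.157 CPM (3 counts, counting error only), which makes that library at least 42.7-fold lower than the control mean, taken without its own error. For the other knockdown libraries the limits are of another kind. They had 95% Poisson intervals with upper ends of 0.784, 0.618 and 1.00 CPM, all below the lower control interval, which began at 5.09 CPM. The fitted log2 change was −3.88 ± 0.50 with shRNA2 and −5.44 ± 0.63 with shRNA1. The shRNA1 counts all come from its replicate 1. The value was −4.28 without shRNA1 replicate 2, and without replicate 1 the group has no counts and no fold is given.

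ANGPTL4, on chromosome 19 from 8363289 to 8374373 (plus strand), measured 11.3 and 9.81 CPM in the controls, 7.99 and 6.85 CPM with shRNA1, and 8.34 and 6.55 CPM with shRNA2. All knockdown libraries were below both controls, but the shRNA2 replicates lay farther apart than the groups' nearest libraries. The means were 70.3% and 70.5% of the control mean (−0.51 ± 0.18 and −0.49 ± 0.18). In the fitted values the distance from ANGPTL2, of the same family, was more than 3 log2 units with each hairpin. It has the error of both genes. With shRNA2 the change of ANGPTL2 had a 95% interval of −4.98 to −2.78, and was −3.54 without shRNA2 replicate 1.

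**Figure D3:**
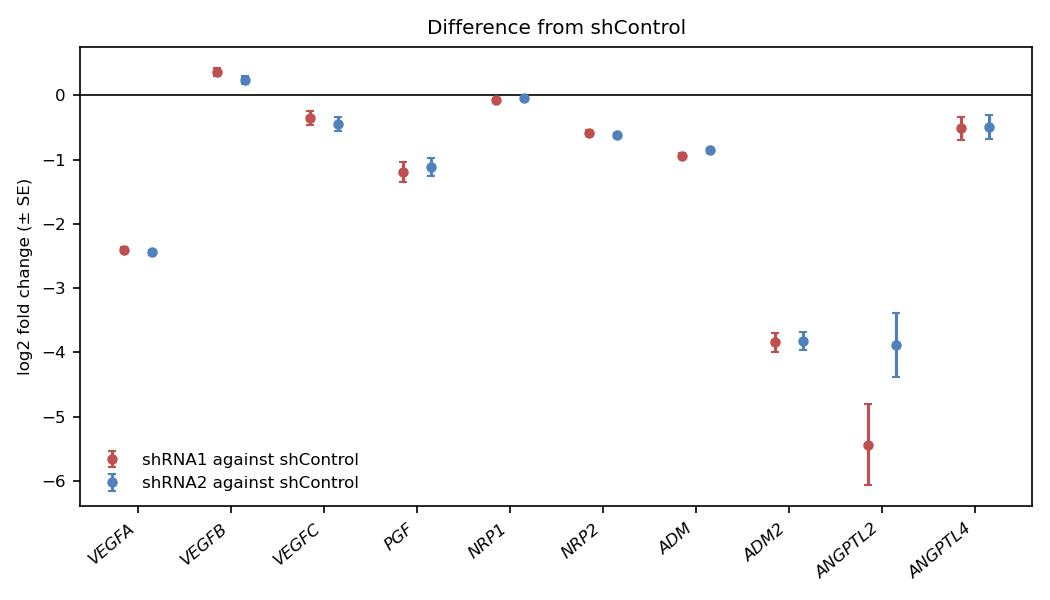
Log2 fold change (vertical axis) of each of the 10 genes with shRNA1 and with shRNA2 against shControl, with bars for the standard error of the edgeR fit. The changes run from −5.44 (ANGPTL2, shRNA1) to 0.37 (VEGFB, shRNA1), and the points of both hairpins lie close together for every gene but ANGPTL2.

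Across the 10 members the median log2 change in the mean of both hairpins was −0.75 (range −4.66 to 0.31, where the lower end, ANGPTL2, was −4.08 without shRNA1 replicate 2 and a fitted −7.11, which is no bound, without shRNA1 replicate 1), beside −0.03 over all tested genes, whose middle 50% ran from −0.49 to 0.40. Every knockdown library was below both controls for 9 members and above them for 1, while 34.2% of all tested genes lay below in this way and 32.7% above. Ranked from the lowest of the 16039 fold changes, ANGPTL2 was at place 36, ADM2 at 68 and VEGFA at 209, whereas PGF was at 1258, ADM at 2006, NRP2 at 3277, ANGPTL4 at 3926, VEGFC at 4766, NRP1 at 7741 and VEGFB at 11225. These values were known when the members were chosen, and nothing is read from them. Both hairpins were set against the same control libraries.

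The difference between the hairpins was tested, but the levels under both were known when the members were chosen. Such a choice can favour genes on which the hairpins agree, so the calls and intervals here are not independent of it. By the edgeR quasi-likelihood test none of the 10 members was called between shRNA1 and shRNA2, none had an unadjusted p under 0.05, and DESeq2 gave 0 on both counts. Over all tested genes 0.0312% (5, or 17 by DESeq2) were called. An unadjusted p under 0.05 was found for 873 (5.44%) by edgeR and for 406 by DESeq2. The members' differences (shRNA1 over shRNA2, log2) had 95% intervals of −0.03 to 0.11 for VEGFA, −0.04 to 0.11 for NRP2 and −0.10 to 0.04 for NRP1, so that these levels were bounded closely. The interval was −0.18 to 0.00 for ADM (adjusted p = 0.918) and 0.00 to 0.25 for VEGFB (adjusted p = 0.918). For ADM2 it was −0.37 to 0.33, for PGF −0.40 to 0.24, for VEGFC −0.15 to 0.33 and for ANGPTL4 −0.41 to 0.38. ANGPTL2 could not be bounded closely, at −1.56 ± 0.80 (interval −3.31 to 0.19, edgeR adjusted p = 0.930).

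**Figure D4:**
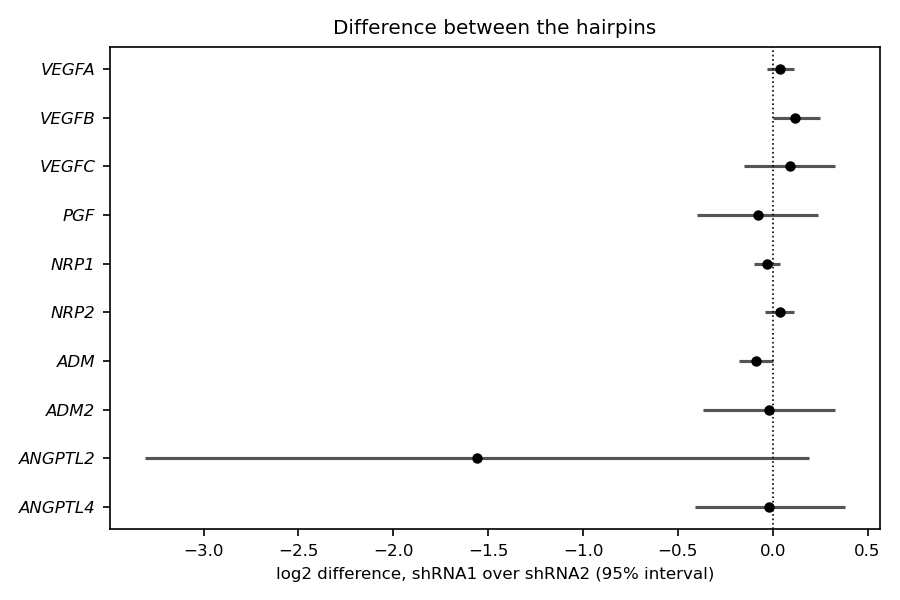
Log2 difference between shRNA1 and shRNA2 (horizontal axis) for each of the 10 genes, with points for the edgeR estimate and lines for its 95% interval. Intervals are narrow for VEGFA, NRP1 and NRP2 and widest for ANGPTL2, from −3.31 to 0.19.

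Genes with the most similar profile were found by the Euclidean distance over 6 libraries of log2 (CPM plus 0.5) relative to the control mean, among 12591 other genes of at least 2 CPM. For VEGFA they included PCK2 (distance 0.120) and CLDN1 (0.231), which had log2 changes of −2.40 and −2.34. ADM2 was nearest to SLC7A11 (0.546), ASNS (0.606) and CHAC1 (0.654), which had changes of −3.59, −3.48 and −3.50. ANGPTL4 was nearest to ZNF18 (0.0304), RP11-187C18.3 (0.121) and ZNF131 (0.148). The distances share their control libraries and are given as a description.

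Other genes of these pathways came from 9 lists with 97 genes, of which 66 could be tested. These lists were chosen with earlier results of these data known, so their calls and p-values are a description and not an independent result. In the mean of both hairpins 16 were called higher and 34 lower by the edgeR test, with a median of −0.26, beside 28.6% and 28.9% of all tested genes called in each direction. Under total counts 8 were higher and 38 lower, and over all tested genes that scaling gave 21.2% higher and 37.6% lower. Either hairpin alone called 44 of 66 (shRNA1, against 52.4% of all genes) and 49 (shRNA2, against 52.8%), while 57.5% of all genes were called in their mean. None of the 66 was called between the hairpins, by edgeR or by DESeq2. By edgeR 3 of them (4.55%) had an unadjusted p under 0.05, beside 5.44% of all tested genes. By DESeq2 it was 4 of them, beside 406 of all 16039 tested genes.

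Most receptors for these ligands had few or no counts. FLT1 and FLT4 had 0 counts in every library and KDR at most 17, below the filter. TEK, the angiopoietin receptor, was near the filter (0.580 CPM in the controls, 0.30 ± 0.54, edgeR adjusted p = 0.663). TIE1, its partner receptor and the 1 called gene of this list, measured 5.79 CPM in the controls, 2.74 under shRNA1 and 2.64 under shRNA2, and was called lower (−1.11 ± 0.21, adjusted p = 2.9e-04). CALCRL had at most 7 counts in any library, RAMP2 at most 2, and RAMP1 and RAMP3 none, so FLT1, FLT4, KDR and the adrenomedullin receptor were below the filter on low counts. Of 10 other ligands of the VEGF and angiopoietin families only ANGPTL6 was tested and it was not called (1.07 ± 0.61, adjusted p = 0.151).

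Among partners of the neuropilins 5 were higher, 3 lower and 3 not called of 11 tested, a split that depends on the scaling. Under total counts SEMA3F was not called (0.06, edgeR adjusted p = 0.256). PLXNA3 (−0.14, adjusted p = 0.0118) and PLXNA4 (−0.87, adjusted p = 0.0387) were called lower there. PLXNA2, called lower at −1.02, had the value −0.75 without shControl replicate 2. SEMA3A, a semaphorin that repels growing axons and endothelial cells, rose from 14.4 CPM to 40.4 and 43.4 (1.53 ± 0.08, edgeR adjusted p = 3.9e-10). SEMA3E rose by 0.96 ± 0.27, a call lost without shControl replicate 2 (0.72, adjusted p = 0.117). SEMA3C fell from 116 CPM to 53.6 and 52.9 (−1.13 ± 0.05) and SEMA3B from 10.9 CPM to 3.91 and 5.18 (−1.27 ± 0.17). Class 3 semaphorins thus moved in both directions beside the unequal NRP1 and NRP2 levels.

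Of 4 tested genes of the adrenomedullin list 3 fell. PAM, the enzyme that amidates adrenomedullin and other peptides, went from 357 CPM to 236 and 227 (−0.63 ± 0.03, edgeR adjusted p = 2.7e-10). ACKR3, a scavenger receptor for adrenomedullin and CXCL12, fell by 1.37 on the log2 scale. Partners of the ANGPTL proteins split into 3 higher, 2 lower and 1 not called, a split that depends on the hairpin and the scaling. With shRNA1 alone 1 was higher and 2 lower, and with shRNA2 alone 3 were higher and 1 lower. Under total counts SDC1 alone was still called higher, and SDC4 was called lower (−0.10, edgeR adjusted p = 0.0285). ITGA5, an integrin alpha chain named after its values were seen, was called higher by 0.09 (adjusted p = 0.0350). It had the value −0.07 under total counts and was not called there, under either other filter, or without shRNA1 replicate 2, shRNA2 replicate 2 or either control library. SDC1, the heparan sulfate carrier syndecan-1, rose by 0.67 ± 0.04 and ITGB1, the integrin beta 1 chain, fell from 1366 CPM to 863 and 835 (−0.69 ± 0.03). LIPG, endothelial lipase, rose by 0.43, but was not called without shControl replicate 1 (0.33, adjusted p = 0.130) or under total counts. LMF1, a lipase maturation factor, was called lower (−0.27 ± 0.10, adjusted p = 0.0305), but not by DESeq2 (0.0947) nor without any single library except shRNA2 replicate 1. ITGA5 and LIPG were not called with shRNA1 alone (edgeR adjusted p = 0.272 and 0.0516), nor was LMF1 with shRNA2 alone (0.0910). LPL, the lipase that ANGPTL4 inhibits, had 0 counts in every library.

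**Figure D5:**
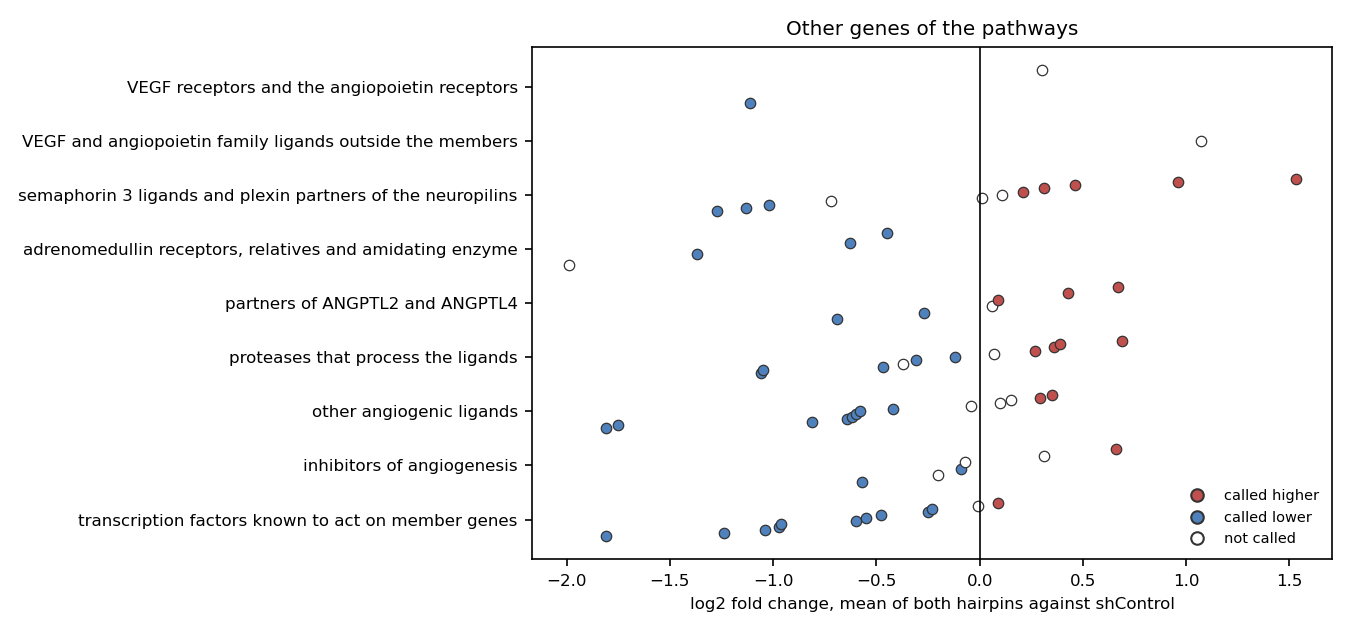
Log2 fold change in the mean of both hairpins against shControl (horizontal axis) of the 66 tested genes outside the 10 members, in 9 lists (vertical axis). Filled points are genes called by the edgeR test (16 higher in red, 34 lower in blue, spread vertically within a list for legibility) and open points genes that were not called.

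Enzymes that cut or release the ligands moved both ways, with 4 higher, 5 lower and 2 not called. Of those called higher, FURIN (0.12, edgeR adjusted p = 0.0667) and ADAMTS3 (0.20, adjusted p = 0.12) were not called under total counts. With shRNA1 alone ADAMTS3 was not called either (edgeR adjusted p = 0.0746). MMP14, called lower at −0.12, had the value −0.08 without shControl replicate 2. PCSK7 (0.69 ± 0.08) and PCSK5 (0.39 ± 0.08), proprotein convertases, rose. PLAU, urokinase, fell from 147 CPM to 72.2 and 69.2 (−1.06 ± 0.05) and ADAMTS1, a metalloprotease that binds VEGFA, from 400 CPM to 195 and 191 (−1.05 ± 0.03). Of 13 other angiogenic ligands 8 fell, 2 rose and 3 were not called. Among the 8 is FGF1, named here after its values were seen, at 0.643 CPM in the controls (−1.75 ± 0.71, edgeR adjusted p = 0.0484). Its call was lost with DESeq2 (0.132), with no filter, with a replicate block and without any single library. CXCL8, interleukin 8, fell from 45.9 CPM to 13.4 and 12.7 (−1.81 ± 0.09, edgeR adjusted p = 8.9e-11) and EDN1, endothelin 1, by 0.81. EFNB2 (0.35) and APLN (0.29) rose, and neither was called under total counts or without shControl replicate 2, nor EFNB2 without shRNA2 replicate 1. With shRNA1 alone neither was called (edgeR adjusted p = 0.0888 for EFNB2 and 0.0711 for APLN).

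Among inhibitors of angiogenesis THBS1, thrombospondin 1, rose from 1173 CPM to 1819 and 1875 (0.66 ± 0.02, edgeR adjusted p = 4.3e-12). COL18A1, whose product holds endostatin, fell by 0.57, a call lost without either shControl library (adjusted p = 0.108 and 0.0835) or either shRNA1 library (0.0708 and 0.0766), and SPARC fell by 0.09, a call lost without shRNA1 replicate 1 (0.0764). The other 3 tested were not called.

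Of 12 transcription factors known to act on these genes 10 fell, 1 rose and ARNT was not called. EPAS1, which encodes HIF-2alpha, went from 550 CPM to 281 and 283 (−0.96 ± 0.03, edgeR adjusted p = 3.6e-13). ATF4, the amino acid response factor, fell by 0.97, and DDIT3 (CHOP), which it induces, by 1.81. ETS1, an endothelial and tumour factor, fell by 1.24. HIF1A was called slightly higher (0.09 ± 0.03, adjusted p = 0.0368), was negative and not called when scaled by total counts (−0.07), and was not called with shRNA2 alone (0.05, adjusted p = 0.308). It lost its call with no filter (0.245) and with the stricter filter (0.0853). It also lost its call without shRNA1 replicate 1 (adjusted p = 0.0620), shRNA2 replicate 1 (0.128) or either control library (0.158 and 0.199).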

How the data were processed

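The authors deposited whole-number counts per gene for 6 libraries. Per the submitters' processing notes they used FastQC 0.11.9, Trim Galore 0.6.7, HISAT2 2.2.1 and StringTie 2.2.1 on hg38. The counting tool, annotation release, strand setting and treatment of multi-mapped reads were not given in the sources used here. Without known strand, reads of VEGFA, ANGPTL4, NRP1 and NRP2 cannot be told apart from those of antisense genes that share 1 to 561 exon bases with them and had at most 40 counts.

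The members and gene lists were chosen with earlier results of these data known. Counts were filtered by filterByExpr, scaled by TMM and fitted across all 16039 genes with edgeR 4.0.16 (quasi-likelihood, robust, group means, all libraries) in R 4.3.3. Calls needed an adjusted p (Benjamini-Hochberg, over all genes) under 0.05. Members have no test against the controls. Simulated data with known changes were used to test the code. Levels are CPM. Positions and lengths come from GENCODE 29 (96.3% of gene IDs).

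All members were described. From each list every called gene was named where 3 or fewer were called, otherwise the 2 largest changes in each direction at a mean of at least 2 CPM, and KDR, FLT1, TEK, CALCRL, RAMP1, EPAS1, HIF1A and ATF4 in any case. The 3 genes nearest in profile were named for VEGFA, ADM2 and ANGPTL4. Some genes that these rules select are not reported here. FLT4, RAMP2, RAMP3, ANGPTL6, LPL, ARNT and the cell type markers were named after their values were seen. Alternatives were DESeq2 1.42.0, RLE factors, total counts, no filter or a stricter one (10 counts in 2 libraries, mean of 1 CPM), a replicate block, only the groups compared, and each library left out.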

Additional observations from a re-analysis of the deposited data

How the results depend on the processing

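Replicates of each group differed beyond counting noise, and 2 libraries a group limit every value; for ANGPTL2 and LINC02068 the counts do. Under total counts the members' median was −0.90 for the mean of both hairpins, −0.92 with shRNA1 and −0.89 with shRNA2 (−0.75, −0.76 and −0.73 with TMM), and pathway genes called higher numbered 8, 6 and 6 (from 16, 11 and 16). Over all tested genes, higher calls went from 4583, 4297 and 4279 to 3398, 3189 and 3146, and lower calls from 4640, 4103 and 4183 to 6028, 5370 and 5535. Among pathway genes called under at least 1 of these scalings, PLXNA3 (−0.14), ITGA5 (−0.07), SDC4 (−0.10) and HIF1A (−0.07) changed sign under total counts. Sign changes of genes called under neither are not listed. With 1 library left out the members' median ran from −0.80 to −0.74 with shRNA1 and from −0.80 to −0.72 with shRNA2. A group left with 1 library borrows its spread from the rest.

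Genes called between the hairpins numbered 5, but 17 by DESeq2, 69 with no filter, 16 with only the groups compared and 12 to 31 with 1 library left out; no member was among them under any of these. Same-numbered libraries did not deviate together over all tested genes (correlations of −0.049 to 0.005). This cannot exclude a pairing that reaches only some genes, and the labels pair no replicates. A replicate block gave 9 such genes and 17 higher and 33 lower pathway genes. The cause of these shifts was not tested.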
